A study of Mus musculus with 12 samples.

Results

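Adipocytes detoxify peroxides and reactive lipid products through the glutathione S-transferases (Gst and Mgst genes), the glutathione peroxidases (Gpx), the peroxiredoxins (Prdx) and the thioredoxin reductases (Txnrd). Genes of these families were taken by symbol, without pseudogenes, where they had at least 10 counts over the 12 libraries, which gave 34 of the 55573 genes in the count table. Of 50 symbols that matched, 7 were pseudogenes and 9 had too few counts. Gstp2 was just inside this minimum with 48 counts, and Gsta2 just outside it with 6.

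RNA was sequenced from cultured adipocytes, grown from stromal vascular cells (SVF) of mouse subcutaneous fat on a C57BL/6 background (C57BL/6J in the methods of the study). Donors were homozygous for the wild-type allele of PPARγ (WT), for an allele with alanine in place of the threonine that is phosphorylated in its DNA-binding domain (TA), or for an allele with aspartate at the same place (TD), which mimics the phosphorylated residue. Each of the 3 genotypes had 4 libraries, all from cells harvested on day 8. Each genotype received the same medium with 10% serum, 850 nM insulin and 1 nM triiodothyronine, and for the first 4 days also 0.5 mM IBMX, 125 nM indomethacin and dexamethasone, for which the labels give 5 mM and the methods the same figure in μM. The mutations were made with CRISPR-Cas9 and are present in every cell of the donor, so SVF cells of each kind carried them before differentiation began. The age and sex of the donors of these cultures, and whether the 4 libraries of a genotype came from separate mice, are not given in the sources used here, so p-values measure the spread between these libraries, which may be technical.

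Glutathione peroxidases and peroxiredoxins reduce hydrogen peroxide and lipid hydroperoxides. Most of the first do so at the expense of glutathione and most of the second at the expense of thioredoxin. Thioredoxin reductases recharge thioredoxin with electrons from NADPH. Glutathione transferases join glutathione to electrophiles such as the aldehydes that arise from peroxidized fatty acids. In fat cells GSTA4 is known for the removal of 4-hydroxynonenal, and many genes of these families carry an antioxidant response element that the transcription factor NRF2 binds.

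The glutathione peroxidases measured here differ in the codon of the active site. The sequences below are the mouse coding sequence around the catalytic codon, read from the GENCODE M21 transcripts on GRCm38, 5′ to 3′ on the coding strand, with the codon of the catalytic residue in capitals. They are shown because Gpx1 and Gpx4, with the selenocysteine codon TGA, fell in TD against WT, while Gpx7 and Gpx8, with a cysteine codon, rose. Gpx3, also with TGA, did not pass the test there. Gpx7 and Gpx8 also share a compartment, the endoplasmic reticulum, and a link between the codon and the direction of change was not tested.
Gpx1: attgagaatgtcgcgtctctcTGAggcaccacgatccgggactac
Gpx3: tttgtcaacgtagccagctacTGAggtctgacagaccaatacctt
Gpx4: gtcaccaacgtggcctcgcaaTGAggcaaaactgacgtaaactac
Gpx7: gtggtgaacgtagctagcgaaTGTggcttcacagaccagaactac
Gpx8: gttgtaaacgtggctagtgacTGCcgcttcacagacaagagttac
TGA stood at codon 47 of Gpx1 (chr9:108339451-108339453), codon 73 of Gpx3 (chr11:54907256-54907258) and codon 129 of the Gpx4 transcript read (chr10:80054737-80054739), all on the plus strand. Gpx7 had the cysteine codon TGT at codon 56 (chr4:108403430-108403432) and Gpx8 the cysteine codon TGC at codon 79 (chr13:113045661-113045663), both on the minus strand. Among the 34 members, an in-frame TGA was found in 6, the others being Txnrd1, Txnrd2 and Txnrd3, where it was the codon before the last.

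Levels were compared between genes as CPM per kilobase of exon, where CPM are the counts of a gene per 1000000 counts of the normalized library. Gpx3, the secreted plasma glutathione peroxidase, had the highest level of the 34 with 744 ± 99.7 CPM per kilobase in WT (SD, n = 4). Prdx3, the mitochondrial peroxiredoxin, came next with 236 ± 19.7, followed by the cytosolic transferase Gstm1 with 163 ± 16 and the microsomal transferase Mgst1 with 161 ± 11. The latter pair did not differ beyond its spread, nor did Gpx4, Prdx1, Prdx6 and Gpx1, whose WT means lay between 144 and 149.5 CPM per kilobase. This order depended on the length used. With the longest transcript Gpx3 was again first, but Mgst1, Prdx6 and Gpx4 (278, 272 and 259 CPM per kilobase) came before Prdx3 (236), and Gstm1 was 8th. At the low end, Gstp1, Gstt2, Gsto2, Mgst2, Txnrd2, Gstm6 and Gstp2 had means of at most 2.1 CPM per kilobase in WT. Both Gstp genes were near the floor, and 54.3% of the 50-base words of Gstp2 also occur in other genes, most in Gstp1, so that their counts are uncertain.

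**Figure D1:**
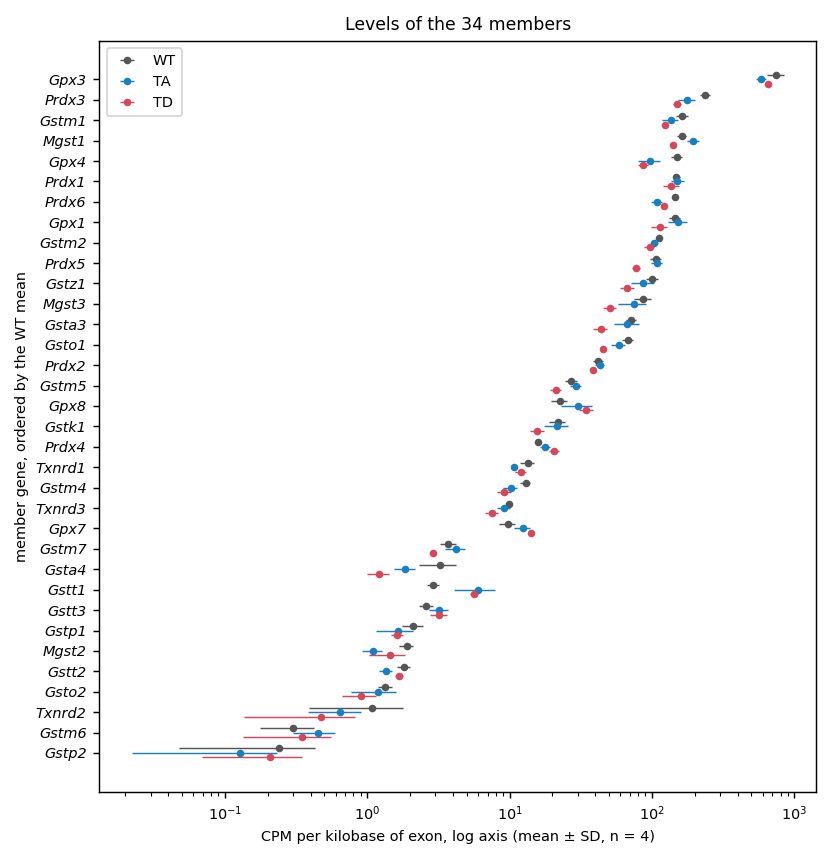
Level of each of the 34 members in CPM per kilobase of exon on a log axis, as the mean ± SD of 4 libraries of WT (grey), TA (blue) and TD (red), ordered by the WT mean. Gpx3 stands above the rest, and the members run over more than 3 orders of magnitude down to Gstp2.

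By class, the 34 members together had 5803 ± 406 CPM in WT, 5073 ± 439 in TA and 4617 ± 234 in TD (SD, n = 4). The 20 transferases fell into the same order of means, with 1939 ± 137, 1834 ± 226 and 1418 ± 92.0 CPM. The 6 peroxiredoxins summed to 1886 ± 90.6, 1642 ± 107 and 1545 ± 88.7 CPM. For the 5 glutathione peroxidases the sums were 1850.3 ± 215, 1492 ± 128 and 1546 ± 74.3 CPM, of which Gpx3 was the largest part in every genotype. The 3 thioredoxin reductases together had 128 ± 9.12, 105 ± 4.52 and 108 ± 6.77 CPM. The sums of all members in TD, from 4324 to 4871 CPM, did not overlap those in WT, from 5423 to 6371.

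In the comparison of TD with WT, 16 of the 33 members tested were lower in TD, 4 were higher and 13 did not pass the test. Over all genes tested 29.2% were called, 14.2% lower and 15.1% higher. Members lower in TD were spread over the classes, with 10 of 19 transferases, 2 of 5 glutathione peroxidases, 3 of 6 peroxiredoxins and 1 of 3 thioredoxin reductases. The median log2 fold change of the members was -0.36, beside 0.01 for all genes tested. All WT libraries lay above all TD libraries for 18 members, or below for 4, and over all genes tested the libraries did not overlap for 32.2%, with TD below WT for 16.4%. Gstp2 was too low to be tested.

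Most transferases that changed were lower in TD. Gsta4 (chr9:78182774-78209349), which conjugates 4-hydroxynonenal, had 5.5, 2.78, 3.52 and 4.6 CPM in WT, 2.87, 2.21, 1.95 and 2.33 in TA and 1.19, 1.83, 1.65 and 1.47 in TD. Every TD library was below every WT and every TA library, while TA1 lay inside the WT range. Gsta4 was 2.66-fold lower in TD than in WT, with a log2 fold change of -1.41 (SE 0.25, edgeR adjusted p = 0.00063), the largest fall among the members called. Its counts were low, from 21 to 106 per library.

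Gsta3 (chr1:21240589-21265661), an alpha-class transferase, had 335, 283, 322 and 298 CPM in WT, 275, 352, 218 and 323 in TA and 217, 185, 193 and 164 in TD. All TD libraries were below all others, and WT and TA overlapped. The log2 fold change of Gsta3 was -0.71 (SE 0.12, edgeR adjusted p = 0.000651) in TD against WT and -0.62 (SE 0.12, edgeR adjusted p = 0.003) in TD against TA. Mgst3 (chr1:167371966-167393841), a membrane-bound transferase with peroxidase activity, had 103, 78.8, 92.3 and 106 CPM in WT, 75.2, 100.4, 58.8 and 91.3 in TA and 56.7, 63.5, 51.8 and 50.9 in TD. For Mgst3 the TD libraries were below all WT libraries, and TA3 alone of the TA libraries fell among the TD values. Its log2 fold change was -0.77 (SE 0.14, edgeR adjusted p = 0.000775) in TD against WT.

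Gsto1 (chr19:47854970-47864790), an omega-class transferase that reduces dehydroascorbate, had 153, 128, 130.4 and 134 CPM in WT, 119, 136, 104 and 113 in TA and 91.6, 93.5, 91.3 and 87.6 in TD. The TD values lay close together and below all WT and TA values, with a log2 fold change against WT of -0.59 (SE 0.08, edgeR adjusted p = 0.000187). Its neighbour Gsto2 did not pass the test (-0.56, edgeR adjusted p = 0.119). Gstz1 (chr12:87147165-87164723), the maleylacetoacetate isomerase of tyrosine breakdown, had 535, 481, 464 and 570.2 CPM in WT, 425, 512, 335 and 500.4 in TA and 390.1, 357, 323 and 298 in TD. Its TD values were all below those of WT, and TA overlapped both, with a log2 fold change of -0.58 (SE 0.12, edgeR adjusted p = 0.00231) in TD against WT. Part of its exons overlaps the opposite strand of Pomt2, a gene with far fewer counts. Gstk1 (chr6:42245935-42250447), a transferase of mitochondria and peroxisomes, had 36.3, 29.9, 26.9 and 34.6 CPM in WT, 30, 34.9, 23.9 and 38 in TA and 24.7, 25.4, 22 and 19.8 in TD. Its log2 fold change was -0.47 (SE 0.13, edgeR adjusted p = 0.0147), and without WT replicate 1 or TD replicate 4 the adjusted p of Gstk1 was 0.0592 and 0.0548.

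The 6 mu-class members lie in a row on chromosome 3 between Gstm5 (chr3:107895821-107898686) and Gstm4 (chr3:108040408-108044894). Of these Gstm1, Gstm2, Gstm4 and Gstm5 fell in TD against WT, by 0.21 (Gstm2) to 0.50 (Gstm4) on the log2 scale. Gstm1, the mu-class member with the highest level per kilobase, had 264, 215, 224 and 254 CPM in WT, 189, 226, 168 and 215 in TA and 192, 186, 183 and 172 in TD. All TD values of Gstm1 were below all WT values, with a log2 fold change of -0.39 (SE 0.09, edgeR adjusted p = 0.00591). Gstm7 was at -0.36 (edgeR adjusted p = 0.0867) and Gstm6, with at most 23 counts in a library, at 0.19 (edgeR adjusted p = 0.789).

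Gstt1 (chr10:75783813-75798584), a theta-class transferase that acts on small halogenated compounds, was the only transferase higher in TD than in WT. It had 3.79, 4.57, 4.81 and 4.66 CPM in WT, 8.13, 5.66, 10.1 and 12.7 in TA and 8.23, 8.19, 9.37 and 8.5 in TD. All libraries of both mutants were above all WT libraries, and TA was the more variable. The log2 fold change of Gstt1 was 0.94 (SE 0.20, edgeR adjusted p = 0.0021) in TD against WT and 1.04 (SE 0.20, edgeR adjusted p = 0.0024) in TA against WT, and the 2 comparisons share the WT libraries. Its neighbours on chromosome 10, Gstt3 and Gstt2, did not pass the test in TD against WT, with log2 fold changes of 0.30 and -0.10 (edgeR adjusted p = 0.107 and 0.6).

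**Figure D2:**
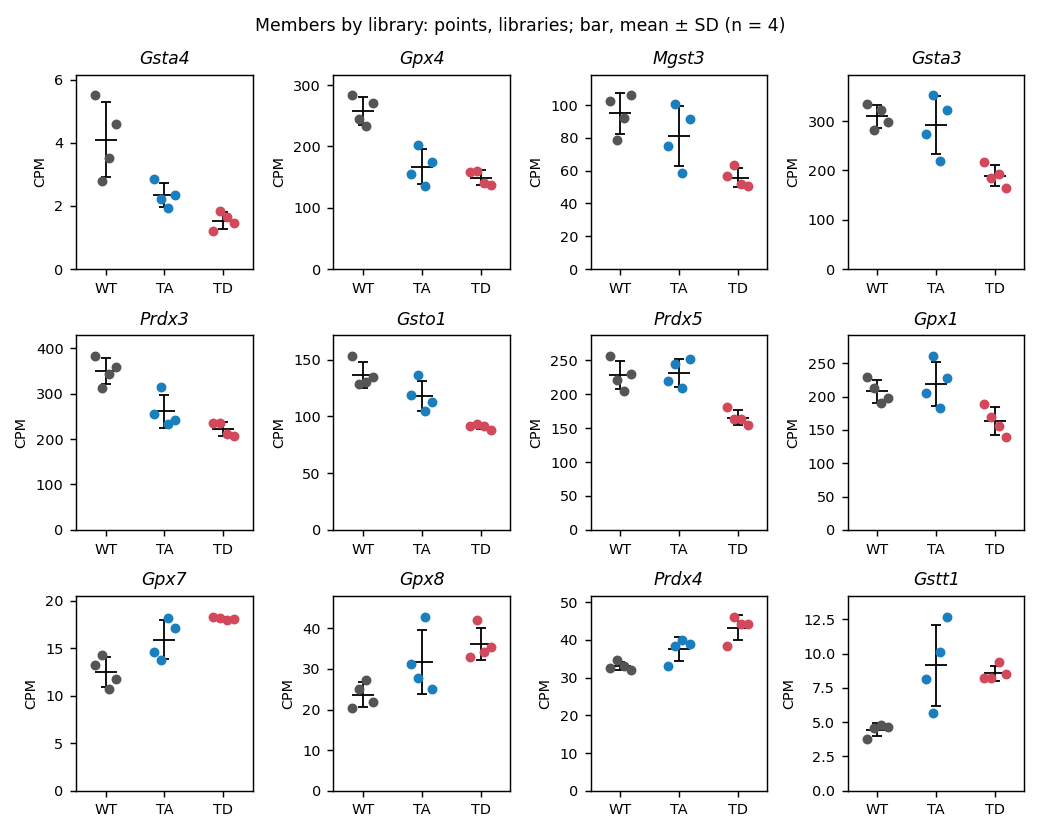
CPM of 12 members in each of the 12 libraries, with the mean ± SD of each genotype (n = 4) on axes that start at 0. The first 8 panels hold members that fell in TD against WT, whose TD points are all below the WT points, and the last 4 hold the members that rose, whose TD points are all above them.

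Peroxidases, peroxiredoxins and thioredoxin reductases are taken next by where their proteins act, transferases being left aside. Of the 5 known to act in mitochondria, alone or with other places, Gpx4, Prdx3, Prdx5 and Gpx1 fell in TD against WT, and Txnrd2 did not pass the test. The 3 of the endoplasmic reticulum, Gpx7, Gpx8 and Prdx4, all rose, beside 14.2% of all genes tested that were lower and 15.1% that were higher. This count leaves out the membrane-bound transferases, of which Mgst3, Mgst2 and Mgst1 had log2 fold changes of -0.77, -0.39 and -0.19 in TD against WT (edgeR adjusted p = 0.000775, 0.131 and 0.0762).

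Gpx4 (chr10:80047166-80056439), the peroxidase that reduces phospholipid hydroperoxides within membranes and holds back ferroptosis, had 283, 244, 233 and 270.5 CPM in WT, 155, 202, 135 and 174 in TA and 159, 159.6, 141 and 137 in TD. The values of both mutants were below every WT value and overlapped each other. The log2 fold change of Gpx4 was -0.79 (SE 0.11, edgeR adjusted p = 0.000146) in TD against WT and -0.63 (SE 0.11, edgeR adjusted p = 0.00113) in TA against WT, and -0.16 (SE 0.11, edgeR adjusted p = 0.326) between the mutants. Gpx4 shares a run of up to 314 identical bases with the processed copy Gpx4-ps2 (chr10:45875291-45876086), which does not include the stretch printed above. The counts of Gpx4 were 0.856 to 1.00 times those of the copy in each library, and how reads were assigned between the gene and the copy is not given in the sources used here. With both counts summed, chosen after the data were seen, the log2 fold change was -0.73 in TD and -0.61 in TA against WT (edgeR adjusted p = 0.000278 and 0.00184).

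Prdx3 (chr19:60864051-60874556), which removes hydrogen peroxide in the mitochondrial matrix, had 382, 313, 342 and 359.6 CPM in WT, 255, 314, 233 and 243 in TA and 236, 235, 211 and 208 in TD. Every TD value was below every WT value, and TA2 was the only TA library within the WT range. Its log2 fold change was -0.65 (SE 0.10, edgeR adjusted p = 0.000209) in TD and -0.42 (SE 0.09, edgeR adjusted p = 0.00853) in TA against WT. Prdx5 (chr19:6906697-6910106), found in mitochondria, peroxisomes and cytosol, had 256, 221, 205 and 230.1 CPM in WT, 219.8, 245, 209 and 251 in TA and 181, 163, 164 and 155 in TD. TA and WT overlapped throughout and TD lay below both, with log2 fold changes of -0.46 (SE 0.08, edgeR adjusted p = 0.000864) against WT and -0.48 (SE 0.08, edgeR adjusted p = 0.00123) against TA. Part of its exons overlaps Trmt112 on the opposite strand, which had far fewer counts.

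Gpx1 (chr9:108338903-108340343), the peroxidase of cytosol and mitochondria, had 229, 213, 189.9 and 198 CPM in WT, 206, 260.4, 183 and 228 in TA and 189, 169, 156 and 140.1 in TD. TD was below WT in every library and TA overlapped both, with a log2 fold change of -0.34 (SE 0.11, edgeR adjusted p = 0.0254) in TD against WT. Txnrd2 (chr16:18426384-18479073), the mitochondrial thioredoxin reductase, had 8.56, 5.21, 4.16 and 1.15 CPM in WT, 4.04, 3.57, 2.23 and 1.56 in TA and 1.25, 0.755, 4.15 and 2.23 in TD. The libraries of each genotype ranged widely and all 3 genotypes overlapped, at 14 to 165 counts per library, and the log2 fold change of -1.18 (SE 0.51, edgeR adjusted p = 0.094) in TD against WT did not pass the test. It passed without WT replicate 4 (adjusted p = 0.0231), without TD replicate 3 (0.0284) and with no filter on low counts (3.5e-05).

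In the endoplasmic reticulum, Gpx7 (chr4:108400390-108406961) and Gpx8 (chr13:113042753-113046410) consume peroxide made during oxidative protein folding. Gpx7 had 13.2, 14.3, 10.7 and 11.7 CPM in WT, 14.6, 13.8, 18.2 and 17.1 in TA and 18.3, 18.2, 17.9 and 18.1 in TD. Gpx8 had 20.4, 25, 27.2 and 21.8 CPM in WT, 31.3, 27.9, 42.7 and 24.9 in TA and 33, 42, 34.2 and 35.3 in TD. For both, every TD value was above every WT value and TA overlapped the other genotypes. The log2 fold changes in TD against WT were 0.54 (SE 0.11, edgeR adjusted p = 0.00237) for Gpx7 and 0.61 (SE 0.14, edgeR adjusted p = 0.0045) for Gpx8. Prdx4 (chrX:155323918-155340754), the peroxiredoxin of the same compartment, had 32.5, 34.7, 33.2 and 31.9 CPM in WT, 33.1, 38.3, 40 and 38.8 in TA and 38.4, 46, 44.2 and 44.3 in TD. TD was again wholly above WT, with a log2 fold change of 0.39 (SE 0.08, edgeR adjusted p = 0.00205). In TA against WT, Gpx7, Gpx8 and Prdx4 had log2 fold changes of 0.35, 0.43 and 0.18 (edgeR adjusted p = 0.0589, 0.0683 and 0.161), and DESeq2 called Gpx7 and Gpx8 higher (adjusted p = 0.0397 and 0.0403).

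Prdx1 and Prdx2, the main cytosolic peroxiredoxins, had log2 fold changes of -0.12 and -0.14 in TD against WT and did not pass the test (edgeR adjusted p = 0.372 and 0.18). Txnrd3 fell in TD against WT by 0.40 on the log2 scale (edgeR adjusted p = 0.00424), with TD wholly below WT. Of the 6 members with an in-frame TGA codon, 3 fell in TD against WT (Gpx1, Gpx4 and Txnrd3). In TA against WT 3 fell (Gpx3, Gpx4 and Txnrd1). No member of the 6 rose by edgeR's test, at an unadjusted p under 0.05 or by DESeq2, in either comparison. Over all genes tested 14.2% were lower and 15.1% higher in TD, and 4.41% and 6.72% in TA. Among only 6 genes, 0 higher is near these shares.

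In the comparison of TA with WT, 8 of the 33 members were lower in TA, 2 were higher and 23 did not pass the test, while over all genes tested 11.1% were called, 4.41% lower and 6.72% higher. The number lower was 5 without WT replicate 1, WT replicate 4 or TA replicate 3, and the number higher was 1 without WT replicate 3, WT replicate 4 or TA replicate 1. The median log2 fold change of the members was -0.13, beside -0.01 for all genes. Besides Gpx4, Prdx3 and Gsta4, the members lower in TA were Mgst2, Prdx6, Gstm4, Gpx3 and Txnrd1, and those higher were Gstt1 and Mgst1. All TA libraries lay below all WT libraries for 6 members and above them for 1, and over all genes tested 13.6% did not overlap, with TA below WT for 5.85%.

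Prdx6 (chr1:161240112-161251219), a peroxiredoxin that uses glutathione and reduces phospholipid hydroperoxides, had 744, 690.4, 682 and 665 CPM in WT, 528, 579.7, 476 and 501 in TA and 586, 608, 569 and 564 in TD. All TA and all TD values were below all WT values. Its log2 fold change was -0.42 (SE 0.08, edgeR adjusted p = 0.00185) in TA and -0.26 (SE 0.08, edgeR adjusted p = 0.0177) in TD against WT, and the latter missed the threshold with library totals alone as the scale and without WT replicate 1, TD replicate 3 or TD replicate 4 (adjusted p from 0.0526 to 0.0611). Gpx3 (chr11:54902453-54910377) had 1588, 1362, 1155 and 1291 CPM in WT, 1088, 1156, 973 and 1017 in TA and 1185, 1215, 1209.5 and 1108 in TD. TA2 reached the lowest WT library, the other TA libraries were lower, and TD overlapped both WT and TA. The log2 fold change of Gpx3 was -0.35 (SE 0.09, edgeR adjusted p = 0.0246) in TA against WT, and -0.19 (SE 0.09, edgeR adjusted p = 0.137) in TD against WT.

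Mgst2 (chr3:51660360-51682677), which can conjugate glutathione to leukotriene A4 and reduce lipid hydroperoxides, had 7.83, 6.6, 6.14 and 7.4 CPM in WT, 3.98, 4.98, 3.4 and 3.83 in TA and 7.44, 4.64, 5.27 and 3.99 in TD. TA was below every WT library, while TD1 stood within the WT range. Its log2 fold change was -0.79 (SE 0.19, edgeR adjusted p = 0.0134) in TA against WT. Mgst1 (chr6:138140316-138156755), a transferase and peroxidase of the endoplasmic reticulum and the outer mitochondrial membrane, went the other way in TA, with 350.3, 299, 316 and 333 CPM in WT, 413, 434, 376 and 348 in TA and 289.7, 278, 284 and 285 in TD. TD lay below all WT and all TA libraries, and TA4 was the only TA library within the WT range. In TD against WT Mgst1 did not pass the test, with a log2 fold change of -0.19 (SE 0.08, edgeR adjusted p = 0.0762), but was called by DESeq2 (0.0372), with only the 2 genotypes fitted (0.0386) and without WT replicate 2 or TA replicate 4 (0.0491 each). The log2 fold change of Mgst1 was 0.28 (SE 0.08, edgeR adjusted p = 0.0313) in TA against WT and -0.47 (SE 0.08, edgeR adjusted p = 0.000906) in TD against TA.

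Txnrd1 (chr10:82833951-82897712), the cytosolic thioredoxin reductase and an NRF2 target, had 90.7, 85.4, 92.9 and 110.1 CPM in WT, 79.3, 75, 79.6 and 71 in TA and 79.3, 77.4, 90.2 and 92.3 in TD. All TA values were below all WT values and TD overlapped both, with a log2 fold change of -0.31 (SE 0.09, edgeR adjusted p = 0.0262) in TA against WT. The falls of Gsta4, Gpx3, Txnrd1 and Gstm4 (edgeR adjusted p = 0.0465 for Gstm4) and the rise of Mgst1 in TA were near the threshold. Gstm4 was not followed singly in the alternatives. Of the 20 alternatives, the call in TA against WT was lost in 7 for Gsta4, 6 for Mgst1, 3 for Gpx3 and 2 for Txnrd1. Without WT replicate 1, for example, the edgeR adjusted p was 0.13 for Gsta4 and 0.0801 for Gpx3. It was 0.091 for Txnrd1 without WT replicate 4, and 0.091 for Mgst1 without TA replicate 1.

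**Figure D3:**
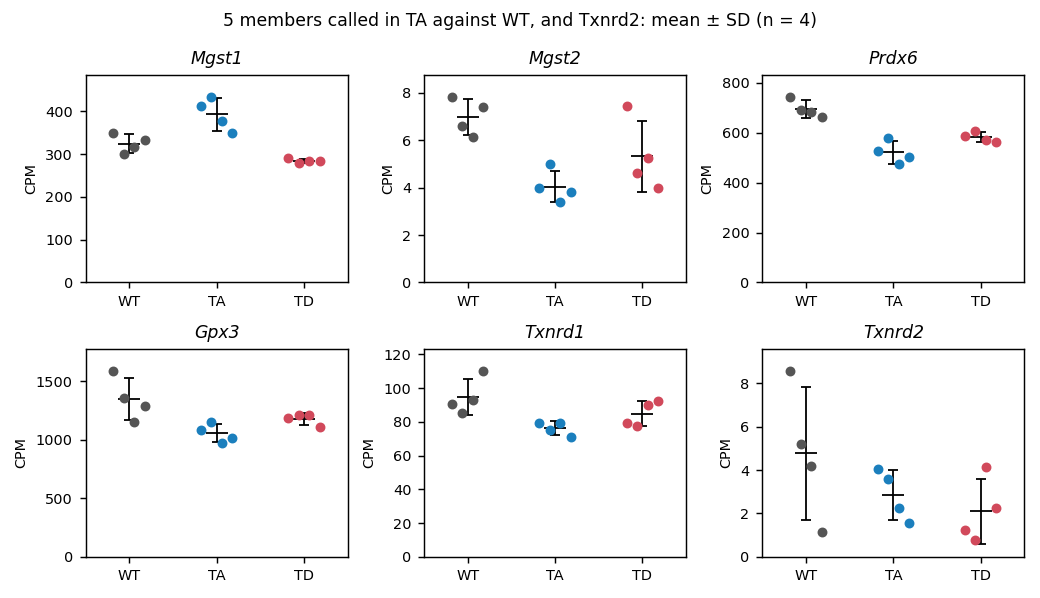
CPM by library of 5 members that were called in TA against WT, and of Txnrd2, with the mean ± SD of each genotype (n = 4) on axes that start at 0. TA points of Mgst2, Prdx6 and Txnrd1 are all below the WT points, and the Txnrd2 points of each genotype range widely.

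The test of TD against TA asks whether the mutants differ from each other. Of the 33 members 10 were lower in TD than in TA and 0 were higher, and over all genes tested 16.7% were called, 9.37% lower and 7.33% higher. At an unadjusted p under 0.05, 2 members were higher in TD, and DESeq2 called 0 higher. The number lower was 5 without TA replicate 2 and 6 without TD replicate 4, and 1 was higher without TA replicate 3 or TD replicate 1. The members lower in TD were Gsta3, Mgst3, Gstm7, Prdx5, Gstm5, Mgst1, Gstk1, Gpx1, Gsto1 and Gstz1, of which 8 are transferases. All TD libraries lay below all TA libraries for 8 members and above them for 0, and over all genes tested 19.9% did not overlap, with TD below TA for 10.6%. With library totals alone as the scale, 8 were lower and 2, Prdx4 and Prdx6, were higher. Adipocyte markers were also lower in TD than in TA for 8 of 10 genes and higher for 1. The part of that shift in these falls was not tested.

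Gstm7 (chr3:107926334-107931817) had 5.86, 5.41, 5.45 and 7.01 CPM in WT, 5.79, 6.58, 6.23 and 8.28 in TA and 4.49, 4.58, 4.68 and 4.75 in TD. All TD values were below all TA and WT values, with a log2 fold change of -0.54 (SE 0.15, edgeR adjusted p = 0.0227) in TD against TA. Gstm5 had 37.6, 35.8, 30 and 34.5 CPM in WT, 32.6, 39.9, 37.7 and 38.9 in TA and 29.5, 28.4, 24 and 25.9 in TD. TD was likewise below every other library, with a log2 fold change of -0.47 (SE 0.09, edgeR adjusted p = 0.00328) against TA. The falls of Gstm7, Gstk1 and Gstz1 in TD against TA were near the threshold, and were lost in 6, 5 and 11 of the 20 alternatives. Without TA replicate 4 their adjusted p was 0.0784, 0.0948 and 0.133, and without TA replicate 2 it was 0.0541, 0.0902 and 0.16. Gsta4, which was lower in every TD library than in every TA library, had a log2 fold change of -0.60 (SE 0.25, edgeR adjusted p = 0.115) in TD against TA.

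Markers of other cells moved with the genotype. Adipocyte markers were lower in TD than in WT for 8 of 10 genes, with summed levels of 15697 to 18627 CPM in WT, 15627 to 21323 in TA and 10314 to 12483 in TD. Fibroblast and preadipocyte markers were higher in TD for 7 of 9 genes tested, with sums of 10144 to 13493 CPM in WT, 11394 to 20407 in TA and 17579 to 25768 in TD. Endothelial markers were higher in TD for 6 of 7 genes (36.3 to 63.6 CPM in WT, 63.3 to 101 in TA and 109.8 to 139.8 in TD) and skeletal muscle markers for 9 of 9 (5.55 to 13.3, 18.9 to 72.9 and 19.0 to 272 CPM). Macrophage markers, with sums of 272 to 797 CPM in WT, 133 to 580.2 in TA and 612 to 854 in TD, had 0 of 8 called in TD against WT by edgeR and by DESeq2 (2 higher at an unadjusted p under 0.05) and 3 of 8 higher in TD against TA. In TA against WT 1 adipocyte marker was higher and 1 lower, and 5 fibroblast, 4 endothelial and 5 muscle markers were higher. In TD against TA 8 of 10 adipocyte markers were lower and 1 was higher, with a median log2 fold change of -0.52. There 4 of 9 fibroblast, 2 of 7 endothelial and 5 of 9 muscle markers were higher. Erythroid markers were at or below 1.04 CPM in sum in every library, and 2 of 6 were at 0 throughout. The part of these shifts in the members' changes was not tested, and in bulk RNA fewer cells of a type cannot be told apart from less RNA per cell.

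The genes that supply the members with glutathione, thioredoxin and NADPH were read from the same fit. Of 17 genes tested for glutathione synthesis, uptake of precursors and breakdown, 3 were higher and 7 lower in TD against WT. TA had 2 higher and 2 lower. Over all genes tested 15.1% were higher and 14.2% lower in TD against WT, and 6.72% and 4.41% in TA against WT. Gclc and Gclm, which encode the subunits of the enzyme that limits glutathione synthesis, had their lowest means in TA. Gclc had 39.8, 41.3, 47.8 and 45.4 CPM in WT, 29.7, 30.5, 29.7 and 29.5 in TA and 40.8, 37.5, 37 and 36 in TD. TA lay below every WT and every TD library, with log2 fold changes of -0.55 (SE 0.08, edgeR adjusted p = 0.00018) in TA against WT and 0.34 (SE 0.08, edgeR adjusted p = 0.00645) in TD against TA. Gclm had a log2 fold change of -0.52 (SE 0.09, edgeR adjusted p = 0.00174) in TA and of -0.33 (SE 0.09, edgeR adjusted p = 0.014) in TD against WT. Slc7a11, the cystine importer, had 11.8, 25.1, 24.3 and 16.2 CPM in WT, 10.9, 8.06, 18 and 7.67 in TA and 32.7, 19.7, 21.5 and 27.7 in TD. TD was above TA in every library and WT overlapped both, with a log2 fold change of 1.18 (SE 0.27, edgeR adjusted p = 0.00717) in TD against TA. Chac1, which degrades glutathione, fell most in TD against WT (-1.26 (SE 0.23, edgeR adjusted p = 0.000978)), and Ggt5, a gamma-glutamyl transferase of the cell surface, rose most (1.02 (SE 0.13, edgeR adjusted p = 0.000119)). Gsr, glutathione reductase, did not pass the test in TD against WT (0.02 (SE 0.08, edgeR adjusted p = 0.899)).

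Of the 13 thioredoxin, glutaredoxin and sulfiredoxin partners, 1 was higher and 6 lower in TD against WT. TA had 3 higher and 1 lower than WT, and TD had 2 higher and 5 lower than TA. Shares of the whole set of genes tested serve as the measure for these counts. TD had 15.1% of that set higher and 14.2% lower than WT. TA had 6.72% higher and 4.41% lower than WT, and TD had 7.33% higher and 9.37% lower than TA. Srxn1, the sulfiredoxin that restores overoxidized peroxiredoxins, had 78.8, 74.1, 86.5 and 87.1 CPM in WT, 49.6, 53.8, 53.7 and 51.3 in TA and 69.4, 59.8, 60.2 and 65.3 in TD. TA was below all WT and all TD libraries and TD below all WT libraries, with log2 fold changes of -0.65 (SE 0.07, edgeR adjusted p = 3.16e-05) in TA and -0.36 (SE 0.07, edgeR adjusted p = 0.00202) in TD against WT. Glrx5, the mitochondrial glutaredoxin of iron-sulfur cluster assembly, fell most in TD against WT (-0.89 (SE 0.11, edgeR adjusted p = 9.88e-05)). Txn1, the cytosolic thioredoxin, and Txn2, the mitochondrial one, had log2 fold changes of -0.48 (SE 0.08, edgeR adjusted p = 0.000551) and -0.44 (SE 0.10, edgeR adjusted p = 0.00527) in TD against WT.

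Among 17 genes for superoxide dismutases, catalase and NRF2 target enzymes, 9 were lower and 1 higher in TD against WT, and 4 were lower and 1 higher in TA against WT. Hmox1, heme oxygenase, had 279.9, 257, 316 and 467 CPM in WT, 132, 144, 171 and 142 in TA and 267, 227, 218 and 197 in TD. All TA libraries were below all others and WT4 was high for its group, with a log2 fold change of -1.16 (SE 0.15, edgeR adjusted p = 0.00011) in TA against WT and 0.62 (SE 0.15, edgeR adjusted p = 0.0112) in TD against TA. Cat, the peroxisomal catalase, had 784, 722, 812 and 851 CPM in WT, 920.1, 1052, 778 and 944 in TA and 639, 595, 578 and 533 in TD. TD was below all other libraries, with a log2 fold change of -0.43 (SE 0.09, edgeR adjusted p = 0.00272) against WT, and the log2 fold change of Cat in TA against WT was 0.22 (SE 0.09, edgeR adjusted p = 0.146). Sod1 had a log2 fold change of -0.53 (SE 0.10, edgeR adjusted p = 0.00123) in TD against WT, and Sod2, the mitochondrial superoxide dismutase, of -0.14 (SE 0.06, edgeR adjusted p = 0.104). Cbr1, a carbonyl reductase, fell most in TD against WT (-1.08 (SE 0.14, edgeR adjusted p = 0.000119)). Nqo1 was low, with means of 6.07, 5.17 and 5.87 CPM in WT, TA and TD, and did not pass the test in any comparison.

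Of the 11 NRF2 pathway regulators tested, 3 were lower in TD and 2 in TA against WT, and 0 differed between the mutants by edgeR (1 higher and 3 lower in TD at an unadjusted p under 0.05, and 2 lower by DESeq2). By edgeR and by DESeq2 0 were higher in either comparison with WT (at an unadjusted p under 0.05, 1 in TD and 0 in TA). Over all genes tested 14.2% were lower and 15.1% higher in TD against WT, and 4.41% and 6.72% in TA. Between the mutants 16.7% of all genes were called. Nfe2l2, which encodes NRF2, had log2 fold changes of 0.07 (SE 0.06, edgeR adjusted p = 0.416) in TD and 0.02 (SE 0.06, edgeR adjusted p = 0.884) in TA against WT, and Keap1, its inhibitor, of -0.13 (SE 0.08, edgeR adjusted p = 0.256) and -0.05 (SE 0.08, edgeR adjusted p = 0.745). Maff, a small MAF protein that pairs with NRF2, fell in both, by 0.45 in TD and 0.55 in TA on the log2 scale (edgeR adjusted p = 0.0073 and 0.00514).

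For the supply of NADPH, 7 of 13 genes tested were lower and 0 higher in TD against WT by edgeR and by DESeq2. At an unadjusted p under 0.05, 0 were higher as well. In TA against WT 2 were lower and 1 higher. Over all genes tested 14.2% were lower and 15.1% higher in TD, and 4.41% and 6.72% in TA. Me1, the cytosolic malic enzyme, had 1015, 1117, 1214 and 1022 CPM in WT, 2167, 2096, 2031 and 1515 in TA and 1143, 1061, 1173 and 1091 in TD. All TA libraries were above all others, with log2 fold changes of 0.84 (SE 0.11, edgeR adjusted p = 7.35e-05) in TA against WT and -0.81 (SE 0.11, edgeR adjusted p = 0.000122) in TD against TA. G6pdx, the entry enzyme of the pentose phosphate pathway, had a log2 fold change of -0.44 (SE 0.09, edgeR adjusted p = 0.00226) in TD against WT and -0.22 (SE 0.09, edgeR adjusted p = 0.146) in TA against WT, and Idh2, of the mitochondrial matrix, fell most in TD (-0.52 (SE 0.12, edgeR adjusted p = 0.00395)). Nnt, the mitochondrial transhydrogenase that makes NADPH, had 2 to 13 counts in every library and was not tested. C57BL/6J mice are known to carry a deletion within Nnt. The shifts of adipocyte and fibroblast markers given above accompany each of these lists in TD, and their part was not tested.

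**Figure D4:**
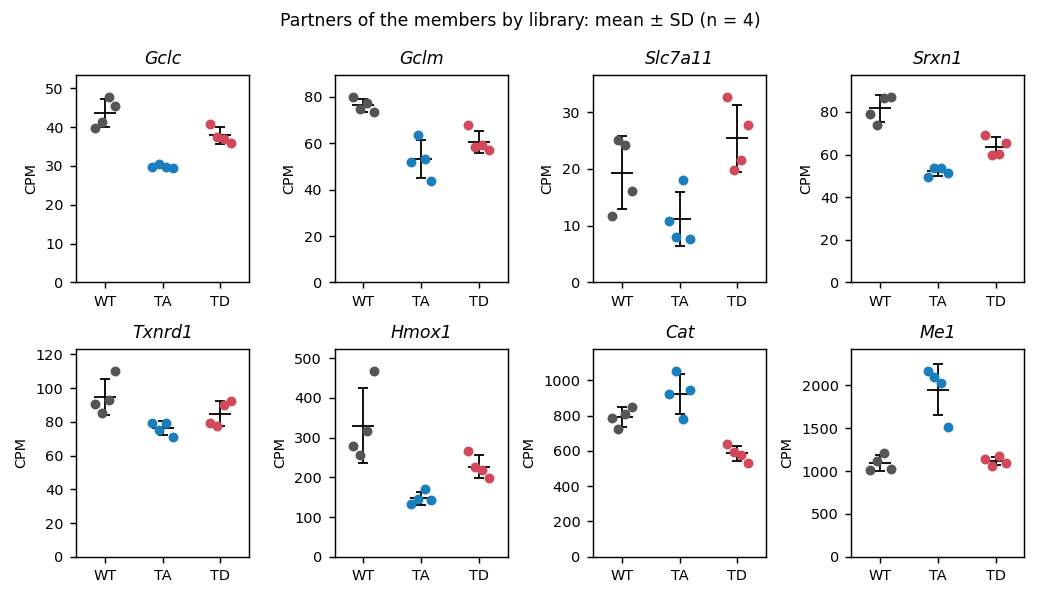
CPM by library of 7 partner genes and of Txnrd1, with the mean ± SD of each genotype (n = 4) on axes that start at 0. TA points of Gclc, Srxn1 and Hmox1 are all below the WT and TD points, and those of Me1 are all above them.

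Because many of these genes are known NRF2 targets, the letters TGACNNNGC, the core of the antioxidant response element, were looked for on both strands of the RefSeq promoters (GRCm38.p6), from 250 bases before to 50 after each gene start. The table held promoters of 31 of the 34 members. The letters occurred in 6 of their 45 promoters (13.3%), beside 12.4% of all 32851 promoters, and in 6 of the 31 genes (19.4%), beside 14% of all genes in the table. The 6 stretches are shown 5′ to 3′ on the strand of the gene, with the matched letters in capitals.
Gsta3: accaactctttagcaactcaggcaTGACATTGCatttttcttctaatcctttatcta
Gstm5: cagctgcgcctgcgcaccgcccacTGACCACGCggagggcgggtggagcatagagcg
Gstm7: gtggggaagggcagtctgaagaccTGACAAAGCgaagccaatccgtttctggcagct
Mgst1: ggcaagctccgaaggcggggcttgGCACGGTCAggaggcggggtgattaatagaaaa
Prdx1: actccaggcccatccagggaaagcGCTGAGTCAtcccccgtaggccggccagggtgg
Txnrd1: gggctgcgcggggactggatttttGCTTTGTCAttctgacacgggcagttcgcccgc
They lie at chr1:21240440-21240496 (Gsta3, plus strand), chr3:107895788-107895844 (Gstm5, plus strand), chr3:107931711-107931767 (Gstm7, minus strand), chr6:138140447-138140503 (Mgst1, plus strand), chr4:116685442-116685498 (Prdx1, plus strand) and chr10:82859090-82859146 (Txnrd1, plus strand). In TA against WT these 6 genes comprised Txnrd1, which fell, Mgst1, which rose, and 4 that did not pass the test. In TD against WT Gsta3 and Gstm5 fell and the others did not pass. A match is a string of letters in this window and no measure of binding.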

How the data were processed

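The authors deposited counts of reads per gene without normalization, from NovaSeq reads aligned to GRCm38. The submitters' processing notes name bcl2fastq 2.17.1.14, cutadapt 1.9.1, HISAT2 2.0.1 and HTSeq 0.6.1, and the strand setting is not given in the sources used here, so reads of overlapping genes on opposite strands cannot be told apart. The deposited count table and library files held equal values. Depth was 18823619 to 20324286 counts per library in WT, 16950175 to 18182526 in TA and 16553324 to 18357864 in TD.

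Groups came from the sample labels. With R 4.3.3 and edgeR 4.0.16, genes were filtered by filterByExpr (minimum count 10, minimum total 15), which left 15117 genes, and libraries were normalized by TMM. A quasi-likelihood model over all 12 libraries compared each mutant with WT and the mutants with each other (two-sided, Benjamini-Hochberg over all genes tested, called at an adjusted p under 0.05). TD and TA share the WT libraries, so no overlap between comparisons is given. SE is the absolute log2 fold change divided by the square root of F. CPM are counts per 1000000 of the TMM-scaled size, and lengths are the union of exons in GENCODE M21, which held 55480 of the 55573 identifiers. No pair of libraries of a genotype was a duplicate, since their counts differed by 4.95 to 38.7 times the sampling variance over genes (chi-square per degree of freedom, 18 pairs). Same-numbered libraries of different genotypes correlated between -0.237 and 0.196 after centring on the group means, so the numbers do not pair them. The steps were tested on simulated data.

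Named members are the up to 5 largest rises and falls per comparison with a mean of at least 1 CPM, the member of each class with the highest level per kilobase, and Gsta4, Gpx3, Gpx4, Prdx3, Prdx4, Txnrd1 and Txnrd2 for their roles. Other members are given by counts or short values. Named partner genes are the defining genes of each list and its largest called rise or fall. The members, lists and tests were chosen with earlier results of these data known. Alternatives were another normalization (edgeR RLE, library totals alone), no or a stricter filter, DESeq2 1.42.0, a fit of the 2 genotypes compared, a replicate block and leaving out each library. Gene copies summed were added after the data were seen.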

Additional observations from a re-analysis of the deposited data

How the results depend on the processing

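No log2 fold change of a named member that was called changed sign in the 20 alternatives. In TA against WT, DESeq2 called 4 members higher, and the fit of only the 2 genotypes compared called 1 higher and 5 lower. In TD against TA, library totals alone gave 2 members higher. The replicate block, for numbers that do not pair the libraries, called 4246 genes between TD and WT (4 members higher, 15 lower), 1560 between TA and WT (2 and 6) and 2488 between the mutants (0 and 11), and under it Gsta4 was lost in TA against WT (adjusted p = 0.0597). Leaving out each library in turn gave 3121 to 4705 genes called in TD against WT, with 4 members higher and 12 to 17 lower and a member median of -0.41 to -0.32. In TA against WT it gave 1160 to 1939 genes, 1 to 3 members higher, 5 to 8 lower and a median of -0.19 to -0.06. In TD against TA it gave 1422 to 3526 genes, 0 to 1 member higher, 5 to 12 lower and a median of -0.25 to -0.14. The lowest counts of genes in TD against TA came without TA replicate 2 (1422), TD replicate 4 (1432) and TD replicate 3 (1586), and members lower than in TA numbered 5 without TA replicate 2 and 6 without TD replicate 4. Members lower in TA than WT numbered 5 without WT replicate 1, WT replicate 4 or TA replicate 3, and those higher 1 without WT replicate 3, WT replicate 4 or TA replicate 1. The cause of these changes beyond the loss of a library was not tested. With the copies summed no count of members called changed. Members under about 5 CPM, such as Gsta4 and Txnrd2, rest on few counts, and differences there may not be detectable at this depth.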

Other observations

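Other genes that need the selenocysteine machinery were read in the same way. Of 20 genes for selenoprotein synthesis and other selenoproteins, 2 were higher and 8 lower in TD against WT, TA had 2 higher and 2 lower than WT, and TD had 1 higher and 3 lower than TA. Dio2, the deiodinase that activates thyroid hormone, had means of 5.67, 2.02 and 2.6 CPM in WT, TA and TD, and fell in TA (-1.49 (SE 0.29, edgeR adjusted p = 0.00323)) and in TD (-1.12 (SE 0.28, edgeR adjusted p = 0.00759)) against WT. Selenom, a protein of the endoplasmic reticulum, rose most in both, with log2 fold changes of 0.80 (SE 0.16, edgeR adjusted p = 0.00147) in TD and 0.64 (SE 0.16, edgeR adjusted p = 0.0151) in TA. Selenop, the secreted selenium carrier, had 2156, 2216, 2373 and 2028 CPM in WT, 3054, 2766, 2769.9 and 2474 in TA and 2391, 2360.5, 2477 and 2423 in TD. All TA values were above all WT values, with a log2 fold change of 0.33 (SE 0.08, edgeR adjusted p = 0.0161).

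Of 12 genes tested that make superoxide or hydrogen peroxide, 4 were higher and 3 lower in TD against WT. TA had 2 higher and 3 lower than WT, and TD had 2 higher and 2 lower than TA. The share of every gene tested that was called, in either direction, was 29.2% between TD and WT. It was 11.1% between TA and WT and 16.7% between the mutants. Nox4, an NADPH oxidase that releases hydrogen peroxide, had 2.49, 2.43, 3.72 and 4.0 CPM in WT, 5.91, 3.32, 9.91 and 3.78 in TA and 6.13, 11.4, 8.52 and 7.74 in TD. TD was above WT in every library and TA3 stood above the other TA libraries, with a log2 fold change of 1.42 (SE 0.30, edgeR adjusted p = 0.00256) in TD against WT. Cybb, an NADPH oxidase subunit of phagocytes, rose most in TD against TA (1.16 (SE 0.31, edgeR adjusted p = 0.0183)). There 3 of 8 macrophage markers were also higher (8 at an unadjusted p under 0.05), and the part of those cells was not tested.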
